A study of Mus musculus with 8 samples.

Results

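Neurotransmitter receptor genes were followed in the whole ovary of the mouse on postnatal day 4 (PND4). The set holds every gene whose official symbol begins with Gabr, Gria, Grik, Grin, Grm, Chrn, Chrm, Htr, Adra, Adrb or Drd and carries the letter or number of a family member. Of 24823 genes in the count table, 93 matched. They comprise 92 genes for receptor subunits and *Chrna1os*, a long noncoding RNA beside *Chrna1* on the opposite strand. *Chrna1os* does not overlap *Chrna1*, shares the symbol stem and is not a receptor. Across the 8 libraries 81 of the 93 were detected, which means at least 10 counts in total, and 48 passed the count filter and were tested for a difference between genotypes. The other 12 genes had fewer than 10 counts, and 4 of these (*Chrna6*, *Drd5*, *Gabra6* and *Htr2b*) had 0 of 160737877 assigned reads, which allows a level of up to 0.0187 CPM (counts scaled to library size; the limit is 3 counts over all libraries and covers counting error only). The 0 of *Htr2b* is uncertain beyond that limit, since *Psmd1* on the opposite strand, with 30634 counts, overlaps 11.8% of its exon length.

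The cKO ovaries carried floxed *Nr5a2* alleles together with the Amhr2-cre transgene (Nr5a2 f/f; Amhr2-cre Tg/+), and the CON ovaries came from littermates that carried the same floxed alleles without the transgene (Amhr2-cre +/+). All mice were on the C57BL/6 background, and each genotype had 4 libraries. *Nr5a2* encodes liver receptor homolog-1 (LRH-1), an orphan nuclear receptor, and the *Amhr2* promoter directs Cre to granulosa cells, whereas the RNA came from all cells of the organ. The comparison asked which transcripts differ in abundance between cKO and CON ovaries at this age.

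Libraries are called cKO 1 to cKO 4 and CON 1 to CON 4 after the columns of the count table, and held 14649243 to 29066847 assigned reads. *Nr5a2* itself had 31.0, 23.1, 27.9 and 27.8 CPM in the libraries labelled cKO and 18.4, 16.3, 15.01 and 12.2 CPM in those labelled CON. This direction goes against the label of a deletion, but the gene-level count includes exons outside the deleted exons 4 and 5 and therefore checks neither the deletion nor the labels. Every direction given here rests on the labels. Oocyte RNA was abundant, with 1383 to 1967 summed CPM over 14 oocyte genes in the libraries labelled cKO and 905 to 1345 in those labelled CON. Of 9 brain neuron and glia genes, the transcription factors *Neurod1* and *Neurod6* had 0 counts and the others had 1 to 9112, with 144 for *Rbfox3* and 273 for *Gfap*. Smooth muscle genes were low in cKO 1 and cKO 2, and neutrophil genes were high in CON 1 and CON 3. A difference in whole-organ RNA cannot separate fewer cells of a type from less RNA per cell. The p-values set the difference between genotypes against the spread among these 4 and 4 samples, whose litters the labels do not give.

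Neurotransmitter receptors are of 2 kinds. Ionotropic receptors (GABA-A, AMPA, kainate, NMDA and nicotinic) are rings of separately encoded subunits around an ion channel. Metabotropic receptors (muscarinic, adrenergic, dopamine, most serotonin and the metabotropic glutamate receptors) signal through G proteins. Both kinds are best known from neurons and muscle, but the ovary also receives sympathetic nerve fibres, which release noradrenaline, and several non-neuronal cells carry GABA and acetylcholine receptors.

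A few receptor genes supplied a large share of the receptor RNA in these ovaries. Together the members took 82585 reads, or 0.05% of all assigned reads, and *Grik5*, *Gabrp*, *Gabra3* and *Adra2a* held 48.3% of these. By family, GABA-A subunits supplied 39.4% of the receptor reads, kainate subunits 20.1%, AMPA subunits 11.98% and alpha-adrenergic receptors 10.5%, whereas the 14 serotonin receptor genes supplied 1.12% and the 5 dopamine receptor genes 0.19%. Per length of exon, *Gabrp* was the most abundant at 19.1 CPM per kilobase, followed by *Grik5* and *Gabra3* at 16.3 and 16.2, *Adra2a* at 7.40, *Chrm4* at 7.05 and *Gabra4* at 5.70 (means over 8 libraries). The median of all tested genes on this scale was 6.62, which *Gabrp*, *Grik5*, *Gabra3*, *Adra2a* and *Chrm4* reached and no other tested member did. Fewer than 10 reads set the level of 12 genes, so the order among the lowest members is not resolved at this depth.

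**Figure D1:**
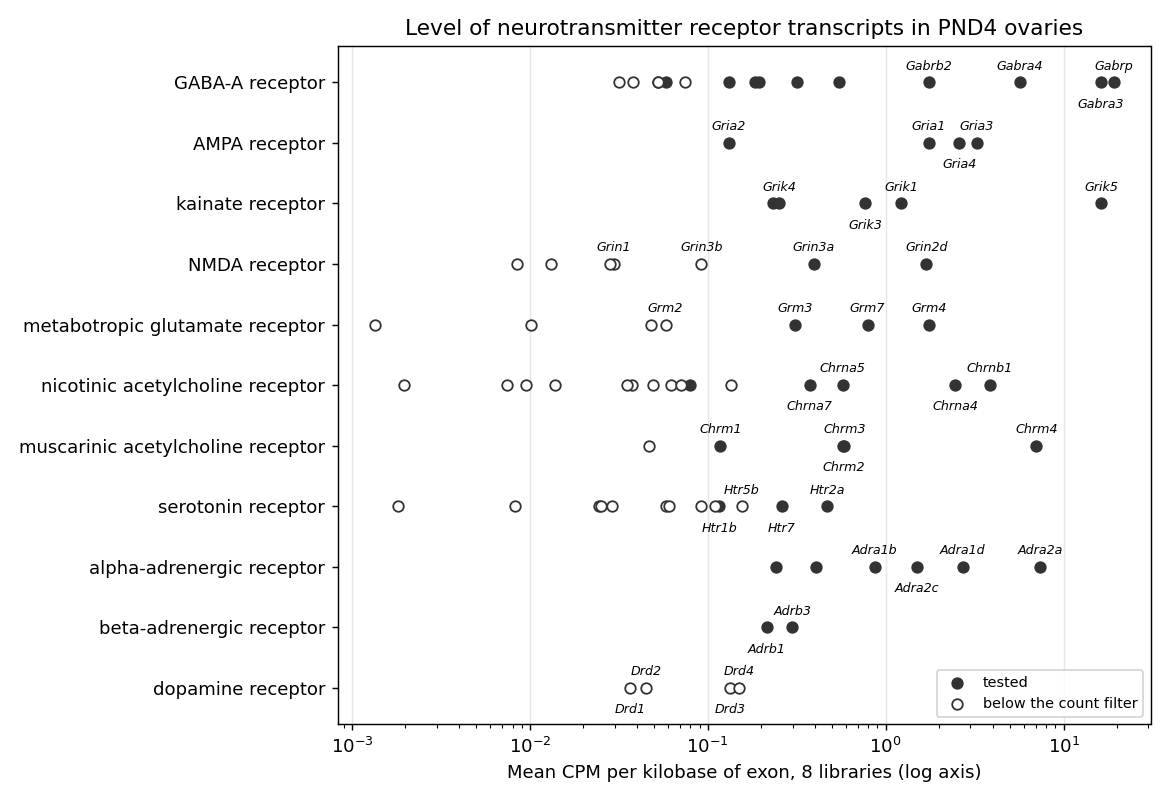
Each circle is a receptor gene, placed by its mean level over all 8 libraries (CPM per kilobase of exon, log axis) and arranged in rows by receptor family, with filled circles for tested genes and open circles for genes below the count filter. *Gabrp*, *Grik5* and *Gabra3* lie farthest to the right at 19.1, 16.3 and 16.2 CPM per kilobase, and all dopamine receptor genes are open circles.

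Several subunits were counted with fewer reads of the partner they assemble with in neurons or muscle. *Grin2d*, an NMDA receptor subunit, had 1.69 CPM per kilobase, whereas *Grin1*, the subunit every NMDA receptor requires, had 0.030 (42 counts in 8 libraries). *Chrna4*, the alpha subunit of the main nicotinic receptor of brain, had 2.46 CPM per kilobase and its usual partner *Chrnb2* had 0.079. *Chrnb1*, the beta subunit of the nicotinic receptor of skeletal muscle, had 3.84 CPM per kilobase, while *Chrna1*, the muscle alpha subunit, had 1 count, and *Chrnd*, *Chrne* and *Chrng* had 37, 36 and 7 counts. *Gria2*, the AMPA subunit that limits calcium flow, had 340 counts and 0.132 CPM per kilobase over 15548 bases of exon. This was below *Gria3* at 3.25, *Gria4* at 2.59 and *Gria1* at 1.75 CPM per kilobase. In CPM, without scaling to length, *Gria2* had 2.04, against 32.0, 16.3 and 10.6 for *Gria3*, *Gria4* and *Gria1*.

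Of the 48 tested members, *Gabre* was called higher and *Adra1d* was called lower in the libraries labelled cKO. A call required an adjusted p under 0.05 in edgeR's quasi-likelihood test over all 15257 genes tested and a fold change of at least 1.5. Over all tested genes 0.891% were called higher and 0.518% lower, 1.41% in all, against 4.17% of the members, which is 2 genes. The 4 cKO values lay wholly above the 4 CON values in 3 members (6.25%, all genes 8.95%) and wholly below in 6 (12.5%, all genes 9.1%). Both directions together give 18.8% of the members and 18.1% of all genes, and an unadjusted p under 0.05 was found for 16 members (33.3%) and for 28.8% of all genes. The log2 fold change was positive in 25 members (52.1%, all genes 49.9%) and negative in 23, with a median of 0.04. By overlap and by unadjusted p, the shares of the receptor genes lay close to those of all genes, and the share of calls rests on 2 genes.

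**Figure D2:**
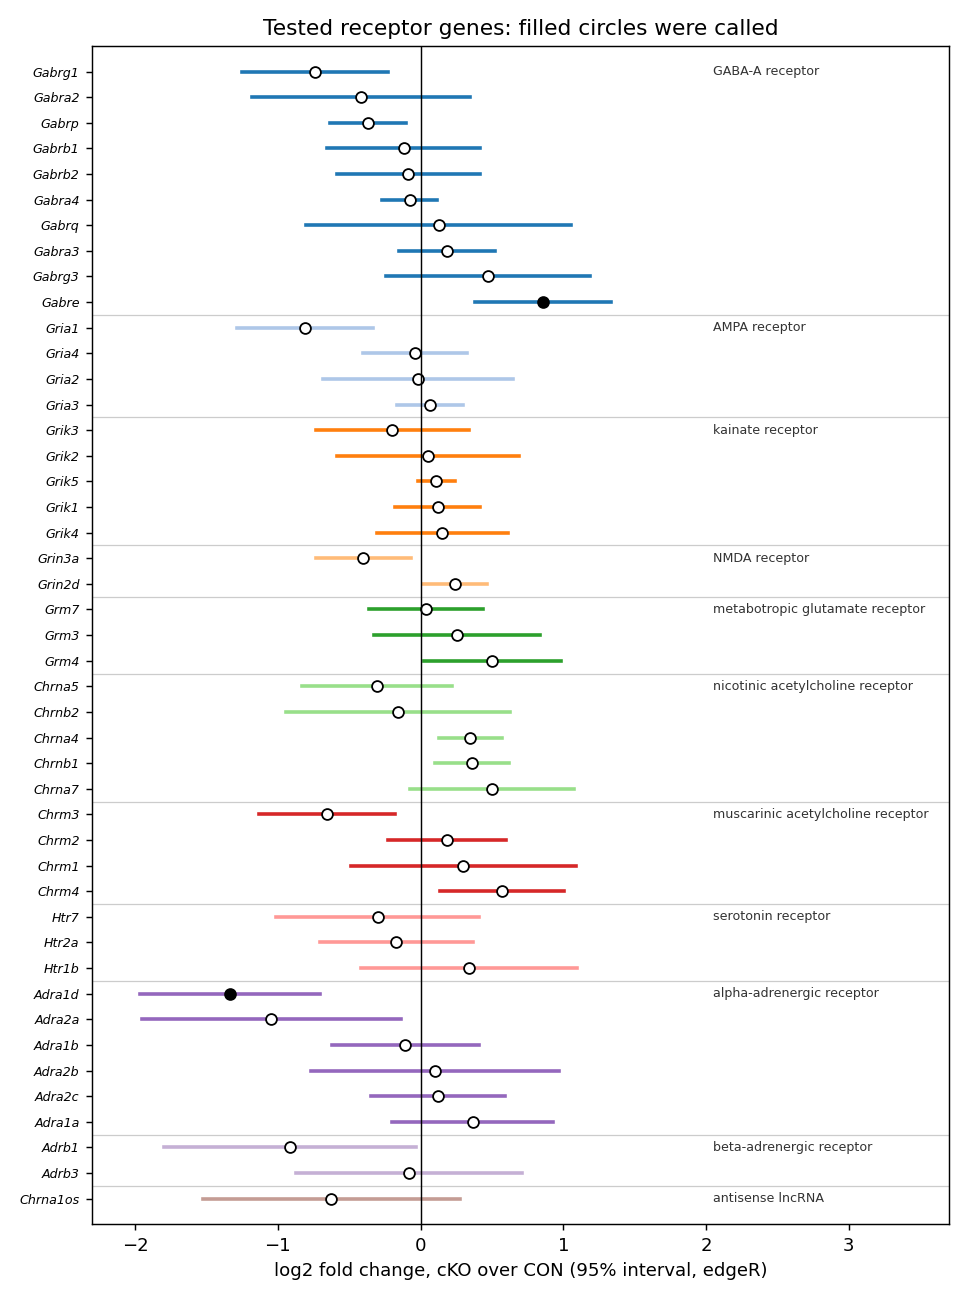
Rows are tested members, grouped by receptor family, each with its log2 fold change (cKO over CON) as a circle and its 95% interval (edgeR) as a bar. The filled circles mark the 2 called genes, *Gabre* at 0.86 and *Adra1d* at -1.34, and the others lie on both sides of 0.

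Among the 19 GABA-A genes, 17 were detected and 12 tested. *Gabre* encodes the epsilon subunit, which can replace the gamma subunit of the receptor. It had 2.77, 3.05, 4.23 and 3.32 CPM in cKO 1 to cKO 4, against 2.25, 1.72, 1.40 and 2.003 CPM in CON 1 to CON 4. Every library labelled cKO lay above every library labelled CON. *Gabre* averaged 3.34 ± 0.63 CPM in cKO and 1.84 ± 0.36 CPM in CON (SD, n = 4 each) and rose 1.81-fold (log2 fold change 0.86, SE 0.21, edgeR adjusted p = 0.0436). It lies on chromosome X (GRCm38, 72256926 to 72274828) beside *Gabra3* and *Gabrq*, whose log2 fold changes were 0.19 and 0.13 (edgeR adjusted p = 0.438 and 0.871). Leaving out cKO 2, cKO 3, cKO 4, CON 2, CON 3 or CON 4 brought the adjusted p of *Gabre* to between 0.0591 and 0.132, and without a count filter it was 0.0518 (range over all alternatives 0.00908 to 0.132). The oocyte list was also higher in every library labelled cKO (ranges above): all 14 genes had positive log2 fold changes, *Ddx4*, *Dazl* and *Bmp15* were called, and its part in the *Gabre* value was not tested.

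The sequence just before the start in RefSeq is shown for *Gabre*, the called gene with a RefSeq promoter entry (GRCm38.p6), and for *Gabrg1*, the gamma subunit gene with the largest difference in the other direction. Letters are 5′ to 3′ on the strand of the gene, which is the minus strand for both, over chrX:72274722-72274971 and chr5:70842618-70842867. For *Gabre* this RefSeq start lies inside the gene span given above, which ends at 72274828, so part of the letters falls within that span.

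Gabre: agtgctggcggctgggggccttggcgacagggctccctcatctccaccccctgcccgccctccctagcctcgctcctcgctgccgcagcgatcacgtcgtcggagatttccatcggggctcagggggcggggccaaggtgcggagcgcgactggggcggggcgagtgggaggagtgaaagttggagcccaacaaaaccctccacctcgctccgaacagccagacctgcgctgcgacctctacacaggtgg

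Gabrg1: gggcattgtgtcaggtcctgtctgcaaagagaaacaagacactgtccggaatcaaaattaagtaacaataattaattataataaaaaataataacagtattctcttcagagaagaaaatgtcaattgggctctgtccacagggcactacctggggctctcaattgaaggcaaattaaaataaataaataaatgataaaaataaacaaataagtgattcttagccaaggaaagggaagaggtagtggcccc

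The 250 bases of *Gabre* held 68.8% G or C and 21 CG pairs, and those of *Gabrg1* held 35.6% and 1, with a median of 52.4% G or C over all promoters of the table. The motif AAGGTCA, to which NR5A receptors bind, was searched on both strands in the 300 bases from 250 before to 50 after each start. It was found in 1 of the 68 members with an entry (1.47%) and in 5.38% of 27025 genes. The match was in *Grin2c*, an NMDA subunit gene with 22 counts that was not tested, and in none of the 36 tested members with an entry. It stands at chr11:115267244-115267493, minus strand, shown here with the match in capitals because it is the only one.

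Grin2c: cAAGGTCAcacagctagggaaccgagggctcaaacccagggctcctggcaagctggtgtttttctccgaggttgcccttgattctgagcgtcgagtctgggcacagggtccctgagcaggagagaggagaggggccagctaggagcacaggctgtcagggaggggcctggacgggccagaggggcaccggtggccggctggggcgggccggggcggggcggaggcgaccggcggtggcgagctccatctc

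*Gabrg1* had 1.08, 1.18, 1.12 and 0.898 CPM in cKO 1 to cKO 4 and 1.46, 1.62, 2.34 and 1.83 CPM in CON 1 to CON 4. The genotypes did not overlap, but the gene did not pass the test (log2 fold change -0.74, SE 0.23, edgeR adjusted p = 0.0726). It forms a cluster on chromosome 5 with *Gabra2*, *Gabra4* and *Gabrb1*, whose log2 fold changes were -0.42, -0.08 and -0.12. *Gabrp*, the pi subunit known from tissues of the reproductive tract, had 68.4, 57.9, 49.3 and 49.3 CPM in cKO 1 to cKO 4, against 83.4, 70.5, 63.0 and 74.6 CPM in CON 1 to CON 4. Only cKO 1 reached into the CON range (log2 fold change -0.37, SE 0.12, edgeR adjusted p = 0.0804). Genes of the reproductive tract list, which mark tissue beside the ovary, summed to 181 to 307 CPM in the libraries labelled cKO, lowest in cKO 3 and cKO 4, and to 349 to 484 CPM in those labelled CON. Of its 8 tested genes 7 had negative log2 fold changes and *Hand2* was called lower, and the part of this list in the *Gabrp* values was not tested.

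*Gabra3*, the most abundant alpha subunit, had 57.4, 51.3, 79.6 and 83.1 CPM in cKO 1 to cKO 4 and 53.4, 61.5, 61.7 and 61.9 CPM in CON 1 to CON 4. The libraries cKO 3 and cKO 4 lay above every CON library, whereas cKO 1 and cKO 2 did not (log2 fold change 0.19, SE 0.15, edgeR adjusted p = 0.438). *Gabra4*, the second alpha subunit by level, averaged 33.7 ± 3.10 CPM in cKO and 35.6 ± 3.32 CPM in CON (SD, n = 4 each), a log2 fold change of -0.08 with a 95% interval from -0.27 to 0.12. The tested GABA-A genes *Gabra2*, *Gabrb1*, *Gabrb2*, *Gabrg3* and *Gabrq* had log2 fold changes between -0.42 and 0.47, and all had overlapping genotypes. Those detected below the count filter were *Gabra5*, *Gabrd*, *Gabrr1*, *Gabrr2* and *Gabrr3*, with 14 to 34 counts each.

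Glutamate-gated channels were represented most strongly by *Grik5*, the kainate subunit that forms channels only with another kainate subunit. *Grik5* had 77.6, 90.0, 92.7 and 89.1 CPM in cKO 1 to cKO 4 and 82.5, 79.3, 79.4 and 82.1 CPM in CON 1 to CON 4. Apart from cKO 1, the libraries labelled cKO lay above all CON libraries, but the difference was small (log2 fold change 0.11, SE 0.06, edgeR adjusted p = 0.242). None of the 5 kainate genes was called by edgeR, 0 had an unadjusted p under 0.05, and the log2 fold changes of *Grik1*, *Grik2*, *Grik3* and *Grik4* ran from -0.20 to 0.15.

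The AMPA subunit gene *Gria1* had 5.42, 7.85, 7.55 and 10.2 CPM in cKO 1 to cKO 4, against 11.9, 18.1, 13.0 and 10.6 CPM in CON 1 to CON 4. All libraries labelled cKO lay below all CON libraries, with cKO 4 and CON 4 next to each other. *Gria1* averaged 7.76 ± 1.97 CPM in cKO and 13.4 ± 3.30 CPM in CON (SD, n = 4 each), and narrowly missed the threshold (log2 fold change -0.81, SE 0.21, edgeR adjusted p = 0.0518). With DESeq2 the adjusted p was 0.00613, with limma-voom 0.0408, and over all alternatives it lay between 0.00613 and 0.162. The other AMPA genes lay close to 0 in the same organ: the log2 fold changes of *Gria2*, *Gria3* and *Gria4* were -0.02, 0.07 and -0.04, and *Gria3*, the most abundant of them, averaged 32.8 ± 4.18 CPM in cKO and 31.2 ± 2.97 CPM in CON.

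**Figure D3:**
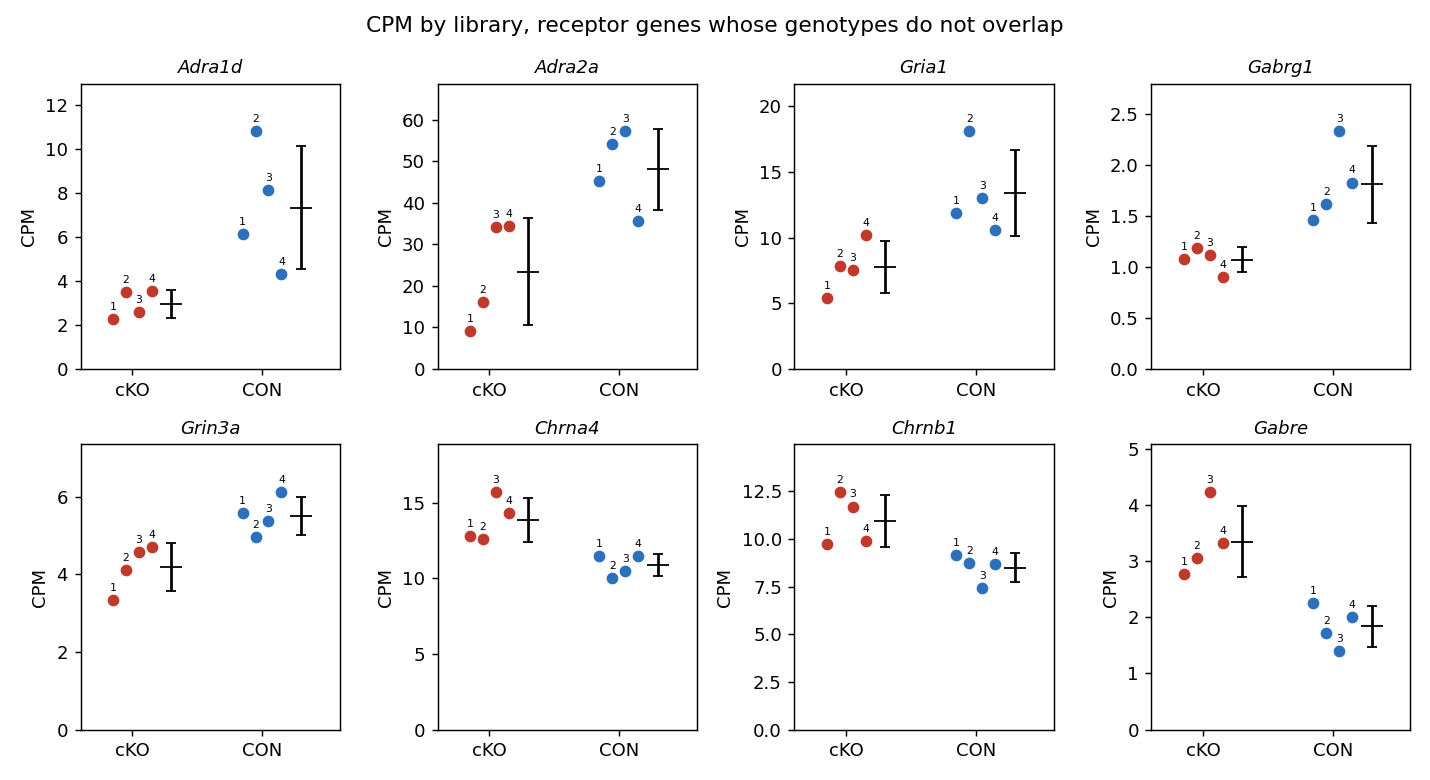
CPM in each library (points, numbered as the columns of the count table) for 8 of the 9 receptor genes whose genotypes did not overlap, with cKO to the left of CON, and the mean and SD of each genotype as a bar. In *Adra1d*, *Adra2a*, *Gria1*, *Gabrg1* and *Grin3a* all cKO points lie below all CON points, and in *Chrna4*, *Chrnb1* and *Gabre* they lie above. *Adra2a* shows the widest spread within cKO, 9.08 to 34.5 CPM.

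Of the 7 NMDA subunit genes all were detected and 2 tested. *Grin3a*, a subunit that lowers calcium flow, had 3.33, 4.11, 4.57 and 4.70 CPM in cKO 1 to cKO 4, against 5.59, 4.96, 5.37 and 6.12 CPM in CON 1 to CON 4. The genotypes did not overlap, and the gene did not pass (log2 fold change -0.40, SE 0.15, edgeR adjusted p = 0.115). *Grin2d* had 11.2, 11.2, 13.5 and 13.1 CPM in cKO 1 to cKO 4 and 9.77, 11.4, 10.1 and 10.02 CPM in CON 1 to CON 4. Its genotypes overlapped through CON 2 (log2 fold change 0.24, edgeR adjusted p = 0.147). The genes *Grin1*, *Grin2a*, *Grin2b*, *Grin2c* and *Grin3b* had 22 to 47 counts each. Exons of *Grin3b* overlap *Tmem259* on the opposite strand over 32.1% of their length, so its 47 counts are uncertain where strand was not used in counting, which is not stated.

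Metabotropic glutamate receptors were led by *Grm4*, which couples to inhibitory G proteins. *Grm4* had 17.3, 10.8, 11.3 and 9.54 CPM in cKO 1 to cKO 4, against 11.8, 8.02, 7.18 and 7.78 CPM in CON 1 to CON 4. CON 1 lay within the cKO range, and cKO 1 was the highest library (log2 fold change 0.50, SE 0.21, edgeR adjusted p = 0.155). *Grm3* and *Grm7* had log2 fold changes of 0.25 and 0.04, and *Grm2*, *Grm5* and *Grm8* were detected with 17 to 78 counts. *Grm6* had 1 count.

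The nicotinic genes with the most reads were both higher in the libraries labelled cKO without passing the test. *Chrna4* had 12.8, 12.6, 15.7 and 14.3 CPM in cKO 1 to cKO 4, against 11.5, 10.02, 10.5 and 11.5 CPM in CON 1 to CON 4 (log2 fold change 0.35, SE 0.10, edgeR adjusted p = 0.0614). *Chrnb1* had 9.72, 12.5, 11.7 and 9.88 CPM in cKO 1 to cKO 4, against 9.14, 8.72, 7.42 and 8.70 CPM in CON 1 to CON 4 (log2 fold change 0.36, SE 0.12, edgeR adjusted p = 0.0802). In both genes the genotypes did not overlap. Summed over the 16 nicotinic genes, the level was 29.1, 30.03, 32.9 and 29.0 CPM in cKO 1 to cKO 4 and 27.5, 23.6, 22.8 and 25.6 CPM in CON 1 to CON 4, mostly through *Chrna4* and *Chrnb1*. As with *Gabre*, the oocyte list moved the same way, and its part was not tested.

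The other tested nicotinic genes, *Chrna5*, *Chrna7* and *Chrnb2*, had log2 fold changes of -0.30, 0.50 and -0.16 with edgeR adjusted p between 0.228 and 0.802. *Chrna7* forms channels by itself, and it had 1.97 ± 0.40 CPM in cKO and 1.41 ± 0.38 CPM in CON (SD, n = 4 each), with overlapping genotypes. Exons of *Chrnb2* overlap *Adar*, an abundant gene on the opposite strand, over 16.3% of their length, so its 106 counts are uncertain in the same way. Detected below the filter were *Chrna2*, *Chrna3*, *Chrna10*, *Chrnb3*, *Chrnb4*, *Chrnd* and *Chrne* with 14 to 54 counts. The noncoding RNA *Chrna1os* had 0.65 ± 0.35 CPM in cKO and 0.99 ± 0.28 CPM in CON (log2 fold change -0.63, edgeR adjusted p = 0.333).

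Muscarinic receptors comprised the abundant *Chrm4*, which signals through inhibitory G proteins, and the rarer *Chrm1*, *Chrm2* and *Chrm3*. *Chrm4* had 12.4, 16.7, 9.54 and 9.88 CPM in cKO 1 to cKO 4, against 8.31, 6.86, 7.42 and 10.1 CPM in CON 1 to CON 4. CON 4 lay above cKO 3 and cKO 4 (log2 fold change 0.57, SE 0.19, edgeR adjusted p = 0.0916). *Chrm3*, which drives smooth muscle contraction through Gq, had 2.13, 2.68, 3.06 and 3.59 CPM in cKO 1 to cKO 4, against 5.12, 5.38, 3.80 and 3.55 CPM in CON 1 to CON 4. Only cKO 4 and CON 4 overlapped (log2 fold change -0.66, SE 0.21, edgeR adjusted p = 0.0808, DESeq2 adjusted p = 0.0417, range over all alternatives 0.0417 to 0.269). *Chrm2* and *Chrm1* had log2 fold changes of 0.19 and 0.30, and *Chrm5* had 12 counts.

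Serotonin and dopamine receptors were scarce. *Htr2a*, a Gq-coupled receptor and the most abundant of the 14 serotonin genes, had 1.53, 2.49, 2.93 and 2.97 CPM in cKO 1 to cKO 4 and 2.61, 2.81, 2.28 and 3.38 CPM in CON 1 to CON 4. The values overlapped (log2 fold change -0.17, SE 0.24, edgeR adjusted p = 0.677). Without cKO 1 the log2 fold change was 0.01. *Htr1b* and *Htr7* had log2 fold changes of 0.34 and -0.30. *Htr1a*, *Htr1d*, *Htr1f*, *Htr4*, *Htr5a*, *Htr5b* and *Htr6* were detected with 21 to 90 counts, and 15 of the 21 counts of *Htr1a* came from CON 2. No dopamine receptor was tested: *Drd4*, *Drd3*, *Drd1* and *Drd2* had 82, 35, 21 and 18 counts.

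Adrenergic receptors, which receive noradrenaline and adrenaline, held the largest decrease among the members. All 9 genes were detected and tested. *Adra1d* (chromosome 2, GRCm38, 131545357 to 131562497), a Gq-coupled receptor that contracts vascular smooth muscle, had 2.25, 3.49, 2.59 and 3.52 CPM in cKO 1 to cKO 4, against 6.11, 10.8, 8.12 and 4.29 CPM in CON 1 to CON 4. The libraries labelled cKO all lay below those labelled CON, with CON 4 nearest. *Adra1d* averaged 2.96 ± 0.64 CPM in cKO and 7.33 ± 2.79 CPM in CON (SD, n = 4 each) and fell 2.52-fold (log2 fold change -1.34, SE 0.28, edgeR adjusted p = 0.0323). The adjusted p was 0.0515, 0.0639, 0.0717, 0.0953 and 0.107 without cKO 1, cKO 2, cKO 3, CON 2 and CON 3, and its range over all alternatives was 0.00041 to 0.107. Exons of *Adra1d* overlap the opposite-strand gene *Gm14285* over 147 bases, 7.7% of their length.

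*Adra2a*, the Gi-coupled receptor that restrains noradrenaline release from sympathetic fibres and is also found on muscle and fat, was the most abundant adrenergic gene. It had 9.08, 16.2, 34.1 and 34.5 CPM in cKO 1 to cKO 4, against 45.3, 54.1, 57.3 and 35.7 CPM in CON 1 to CON 4. The genotypes did not overlap, but cKO 3 and cKO 4 came within reach of CON 4 and the spread in cKO was large (mean 23.5 ± 12.8 CPM, against 48.1 ± 9.71 CPM in CON). The gene did not pass the test (log2 fold change -1.05, SE 0.40, edgeR adjusted p = 0.129). Without cKO 1 and cKO 2 its log2 fold change was -0.50.

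*Adrb1*, the main beta receptor of the heart, had 0.522, 0.810, 0.432 and 0.276 CPM in cKO 1 to cKO 4 and 0.993, 1.44, 0.526 and 0.801 CPM in CON 1 to CON 4, with cKO 2 inside the CON range (log2 fold change -0.91, SE 0.40, edgeR adjusted p = 0.162). The adrenergic genes *Adra1a*, *Adra1b*, *Adra2b*, *Adra2c* and *Adrb3* had log2 fold changes of 0.36, -0.11, 0.10, 0.12 and -0.08.

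Smooth muscle and nerve markers were measured beside the adrenergic genes. The 10 smooth muscle genes summed to 1009, 1357, 2483 and 3182 CPM in cKO 1 to cKO 4 and to 2923, 3898, 4010 and 3252 CPM in CON 1 to CON 4. All 10 had negative log2 fold changes (median -0.88), 4 had an unadjusted p under 0.05 and 0 were called by edgeR, whereas DESeq2 and limma-voom each called *Synpo2*. *Adra2a* was low in the same libraries as this list, cKO 1 and cKO 2. *Adra1d* was as low in cKO 3 and cKO 4, at 2.59 and 3.52 CPM, as in cKO 1 and cKO 2. The 15 peripheral neuron genes summed to 407 to 501 CPM in the libraries labelled cKO and to 307 to 390 CPM in those labelled CON, and none was at 0. *Uchl1* alone held 309 to 390 CPM of this in cKO and 205 to 310 CPM in CON, and the other 14 summed to 92.0 to 114 CPM in cKO and 80.3 to 111 CPM in CON. Of the 11 tested, 7 had positive and 4 negative log2 fold changes (median 0.30). *Slc6a2*, the noradrenaline transporter of sympathetic fibres, and *Gap43*, a protein of growing axons, fell. They had 1.01 and 5.62 CPM in cKO against 7.15 and 12.8 CPM in CON. *Th*, which makes the noradrenaline precursor, had 19.0 CPM in cKO and 12.1 CPM in CON (edgeR adjusted p = 0.0609). The sympathetic identity gene *Phox2a* and the noradrenaline enzyme *Dbh* had 56 and 38 counts in all 8 libraries together. The part of muscle and nerve RNA in the adrenergic values was not tested.

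The libraries cKO 1 and cKO 2 were separated from cKO 3 and cKO 4 in many receptor genes, as in many of all tested genes. The shares of the members differed from those of all genes by direction. In 18 of the 48 tested members (37.5%) cKO 1 and cKO 2 both lay below cKO 3 and cKO 4, against 24.9% of all tested genes, and in 5 (10.4%) both lay above, against 24.2% of all. The first set includes *Gabra2*, *Gabra3*, *Gabrb2*, *Gria3*, *Gria4*, *Grik2*, *Grik3*, *Htr2a* and *Adra2a*, and the other includes *Adrb1*, *Chrm4*, *Chrna5* and *Gabrp*. Summed over all members, the level was 459, 473, 538 and 536 CPM in cKO 1 to cKO 4 and 518, 540, 521 and 514 CPM in CON 1 to CON 4. Immediate early genes, which cells induce quickly after a stimulus, were highest in cKO 1 (2126 summed CPM, against 362 to 716 in the other 7 libraries), and no label tells these libraries apart.

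Without cKO 1 and cKO 2, in a fit that leaves 2 libraries labelled cKO against 4, edgeR gave an adjusted p under 0.05 for 4 of 51 tested members (7.84%), beside 5.25% of all 15565 genes tested there. *Gabra3* then stood at 0.44 on the log2 scale (SE 0.07, edgeR adjusted p = 0.0107) and *Gabrp* at -0.57 (SE 0.10, adjusted p = 0.0144), both under the fold threshold. *Chrna4* had 0.47 (SE 0.11, 0.0352), and *Gabre* remained called at 1.04 (SE 0.25, 0.0406). Compared with cKO 3 and cKO 4, the libraries cKO 1 and cKO 2 were lower for *Gabra3*, *Chrna4* and *Gabre* and higher for *Gabrp*. Leaving them out therefore had to widen all 4 differences, and these adjusted p-values are no separate support. *Adra1d* kept its size at -1.30 (SE 0.38) with an adjusted p of 0.0966.

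**Figure D4:**
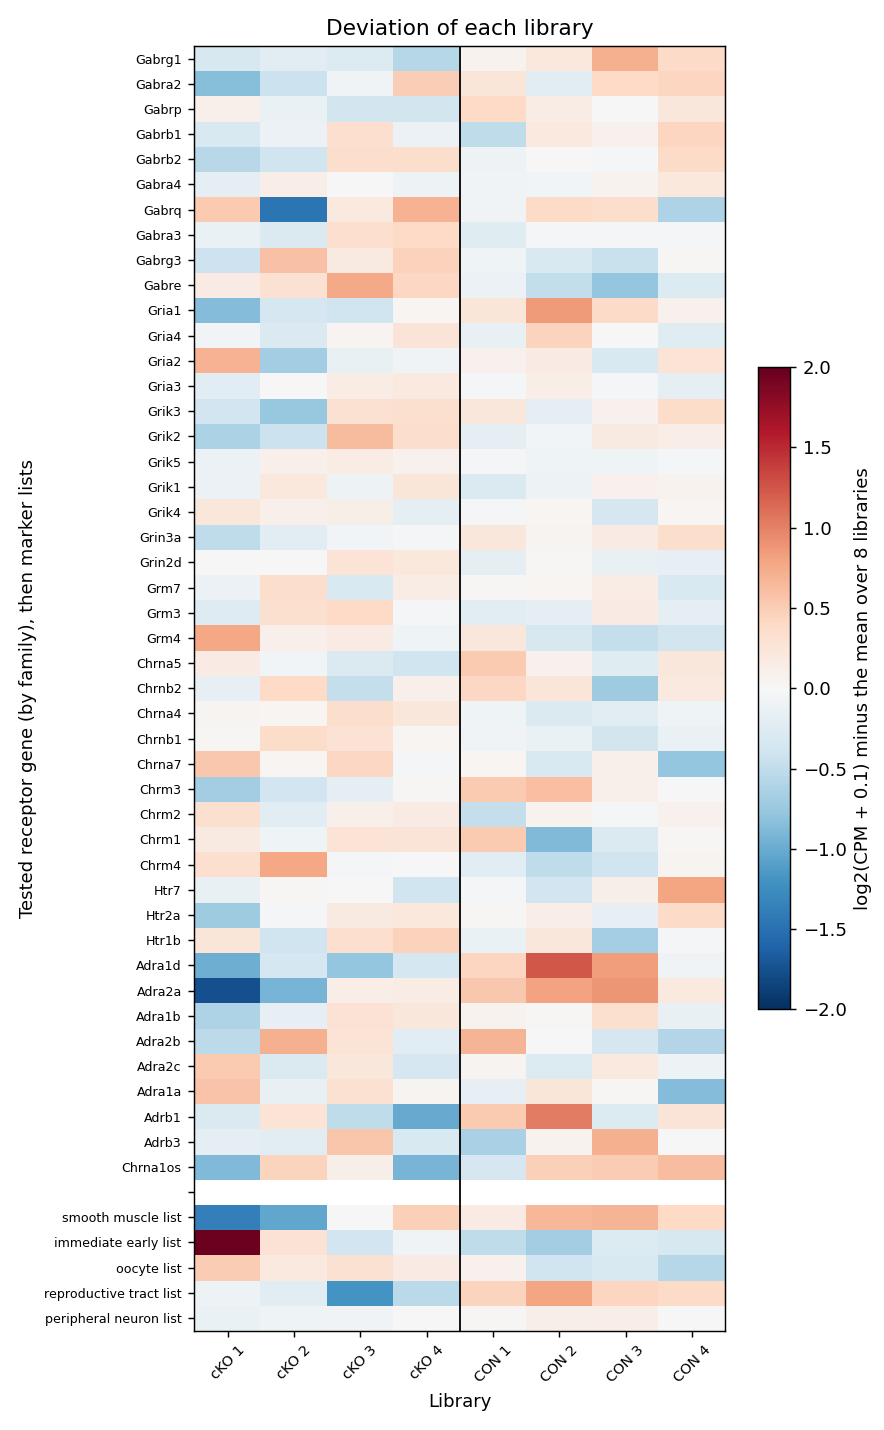
Each cell gives, for a tested member (rows, by family) and a library (columns, cKO left of CON), log2(CPM + 0.1) minus the mean over the 8 libraries, red above and blue below the mean, and the lowest rows give the mean deviation of 5 marker lists. *Adra2a* and the smooth muscle list are both lowest in cKO 1 and cKO 2. *Adra1d* lies below its mean in all 4 cKO libraries and is lowest in cKO 1. The reproductive tract list also lies below its mean in all 4 and is lowest in cKO 3.

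The genes that make, carry and clear the transmitters differed between systems in level. For GABA, the synthesizing enzymes *Gad1* and *Gad2* had 11 and 0 counts and the vesicle transporter *Slc32a1* had 2, while *Abat*, which breaks GABA down, had 12649. For acetylcholine, the synthesizing enzyme *Chat* had 8 counts and its vesicle transporter *Slc18a3* had 26. For noradrenaline and other monoamines, *Th* had 2518 counts, the vesicle transporter *Slc18a2* had 8254 and *Maoa*, which breaks monoamines down, had 11373. Receptor transcripts for GABA and acetylcholine were counted here beside few or no reads of the neuronal enzymes that make these transmitters.

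Of the genes tested in these 4 lists edgeR called 2. Over all genes tested, edgeR called 1.41% and gave 28.8% an unadjusted p under 0.05. Of 11 tested genes of GABA handling 0 were called by edgeR, 8 had an unadjusted p under 0.05, and DESeq2 and limma-voom each called *Slc6a13*, a GABA transporter, lower. *Gabbr1*, a subunit of the G protein-coupled GABA-B receptor, averaged 39.1 CPM in cKO and 29.5 CPM in CON and passed on p but not on fold (log2 fold change 0.41, edgeR adjusted p = 0.0329). Among 32 tested genes of glutamate handling, *Neto2*, an auxiliary subunit of kainate receptors, had 16.5 CPM in cKO and 24.02 CPM in CON (log2 fold change -0.55, adjusted p = 0.073).

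Of 13 tested genes of acetylcholine handling 0 were called by edgeR, DESeq2 or limma-voom and 4 had an unadjusted p under 0.05. *Ly6h*, which limits nicotinic receptor assembly, and *Bche*, which splits choline esters, passed on p with log2 fold changes of -0.43 and -0.27 (edgeR adjusted p = 0.0345 and 0.0403). With edgeR *Slc6a2* was the called gene among 18 tested genes of monoamine handling (log2 fold change -2.86, SE 0.40, edgeR adjusted p = 0.0119). *Slc22a3*, a low-affinity monoamine transporter, averaged 12.5 CPM in cKO and 22.5 CPM in CON (log2 fold change -0.86, edgeR adjusted p = 0.0823). DESeq2 and limma-voom each called *Slc22a3* lower and *Th* higher as well as *Slc6a2* lower. The medians of the lists for GABA, glutamate, acetylcholine and monoamines were 0.03, 0.03, 0.01 and -0.05, beside 0.04 for the receptor genes.

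Among the other marker lists, edgeR called 1 granulosa gene of 13, *Nr5a1*, which was higher, and 1 neutrophil gene of 6 tested, *Mmp9*, which was lower. DESeq2 and limma-voom also called the granulosa gene *Amhr2* lower, and for the neutrophil list DESeq2 called 8 genes lower and limma-voom 0. With edgeR, 0 genes were called among the tested genes of the Schwann cell (8), skeletal muscle (5), endothelial (10), fat cell (4), immediate early (12) and brain neuron and glia (5) lists, of which 0, 0, 1, 1, 3 and 1 had an unadjusted p under 0.05. DESeq2 called *Egr1* and *Fos* of the immediate early list and *Acta1* of the skeletal muscle list, and limma-voom called 0 in these 6 lists.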

How the data were processed

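Whole-ovary RNA of 8 PND4 samples was sequenced with a kit that marks strand. The deposited counts per gene are those the authors obtained with featureCounts after STAR alignment to GRCm38, whose versions, gene annotation and use of strand are not given in the sources used here. A deposited table of the authors' own DESeq2 comparison and CPM was not used. NCBI gene IDs were joined to RefSeq symbols (99.7% of 24823). Column names gave the genotype but no single sample title, and all 8 columns entered the fit.

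Tests used edgeR 4.0.16 under R 4.3.3, with TMM scaling, the filterByExpr filter, a robust quasi-likelihood fit with its F test, and Benjamini-Hochberg adjustment over 15257 genes. CPM are TMM-corrected, SE is the standard error of a log2 fold change, and exon lengths and overlaps come from GENCODE (GRCm38). Gene positions come from RefSeq. The smallest chi-square per gene between any 2 libraries was 3.67, so no library was taken as a repeat of another.

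Alternatives were no count filter, scaling by RLE, by the upper quartile or by library size alone, at least 10 counts in every library, DESeq2 1.42.0, limma-voom (limma 3.58.1), no robust estimation, no fold threshold, leaving out each library, leaving out cKO 1 and cKO 2, and, chosen after seeing the data, leaving out CON 1 and CON 3. The members, the 12 marker lists and the 4 lists of transmitter handling were chosen with earlier results of these data known. Named are called members, members with an unadjusted p under 0.05 or without overlap, the most abundant of each family, the detected members by name, and of each list the called genes or else up to 3 with the smallest p. *Gabra3*, *Gabra4*, *Chrna7* and counts of single enzymes and transporters were named after their values were seen. The scripts were tested on simulated data. Values of a few genes are not reported here, although these genes enter the totals.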

Additional observations from a re-analysis of the deposited data

Results flagged for a closer look

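In each genotype of 4 libraries, the highest and the lowest value of every tested member were compared with the other 3 libraries by Dixon's ratio of gap to range and its critical value at the 95% level. Of 96 groups 3 exceeded it, fewer than the 1 in 20 that chance gives. *Gabra3* had 53.4 CPM in CON 1, against 61.5 to 61.9 CPM in the other CON libraries. *Adrb3* had 1.47 CPM in cKO 3, against 0.760 to 0.843 CPM in the other cKO libraries. *Grm3* had 1.05 CPM in CON 3, against 0.784 to 0.809 CPM in the other CON libraries.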

How the results depend on the processing

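The count of members called lower (1) was 2 with upper quartile scaling, at least 10 counts in every library, limma-voom or no robust estimation, 3 with DESeq2, and 0 without cKO 1 and cKO 2 or without CON 1 and CON 3. It lay between 0 and 2 when single libraries were left out. The added genes were *Gria1* and, with DESeq2, *Chrm3*. The count called higher (1) was 0 without a count filter or without CON 1 and CON 3, and 0 to 1 without single libraries. Members wholly above CON (3, 6.25%) numbered 5 with library size alone (10.4%) or without CON 1 and CON 3 (9.8%). They numbered 12 without cKO 1 and cKO 2 (23.5%), and 3 to 5 without single libraries. Over all genes tested, cKO lay wholly above CON in 8.95%, and in 9.73% with library size alone, 19.2% without CON 1 and CON 3 and 17.2% without cKO 1 and cKO 2, since smaller sets overlap less often. Without single libraries, members wholly below (6) numbered 6 to 7 and the median log2 fold change lay between -0.01 and 0.07. Without cKO 1 and cKO 2 these were 9 (17.6%, all genes 17.3%) and 0.13. *Htr2a* turned to 0.0865 without cKO 1 and cKO 2 and to 0.009 without cKO 1 (-0.273 to 0.009 without single libraries).

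Over all genes, 136 higher and 79 lower calls became 254 and 177 with DESeq2, 61 and 157 without cKO 1 and cKO 2, 55 and 14 without CON 1 and CON 3, and 555 and 501 with no fold threshold. They lay between 0 and 322 and between 0 and 105 without single libraries. Both counts were 0 without CON 2 or CON 3, where the smallest adjusted p was 0.0567 and 0.0613. In the lists of transmitter handling the 2 calls became 1 with RLE scaling, upper quartile scaling, no count filter or without CON 1 and CON 3, 5 with DESeq2 or no fold threshold, 4 with limma-voom, and 0 to 5 without single libraries. The cause was not tested. Of 19 named members, 14 kept direction and side of the call, which needs adjusted p and fold together, in all alternatives run for them. Of these, *Chrna4*, *Chrm4* and *Gabrp* had an adjusted p under 0.05 with DESeq2, *Gabrp* also without cKO 1, and *Chrna4* and *Gabrp* without cKO 1 and cKO 2. No paired analysis was possible because the genotypes share no replicate number in the labels. The 33 detected members below the count filter were not tested with the filter on all libraries, and all entered the fits with no count filter and with DESeq2.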
